A study of Mus musculus with 45 samples.

Results

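BSP-seq, the sequencing of PCR products from bisulfite-treated DNA, was used to read the methylation level of CpGs in 23 amplicons in the colonic epithelium of 5 formerly obese and 5 control mice, 10 of the 45 samples of the series. The paper describes the CpG sites as chosen at random, and reports a strong correlation of their levels between BSP-seq and whole-genome bisulfite sequencing. The table held 253 CpG entries. Exact repeats of an entry, 20 in all, were dropped, and CpGs within 500 bp of the next were taken as 1 amplicon. All mice were male C57BL/6 mice (C57BL/6J in the methods of the study) that entered the study at 6 weeks of age. Control mice (LF) ate a diet with 10% fat for 20 weeks, and formerly obese mice (HF-LF) ate a diet with 60% fat for 15 weeks and then the 10% fat diet for 5 weeks. The fat source was lard. The obese group (HF, 60% fat for 20 weeks, 5 mice) entered the fits and is given for reference. Epithelium was released from the entire colon with EDTA, so each value is a mean over all cell types and colon segments in the preparation. Fewer methylated cells and less methylation per cell cannot be told apart. The paper describes the sequencing of these amplicons as deep, but the table gave no read depth per value. The counting error of single values was therefore not computed, and errors are those between mice.

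DNA methylation in mammals is laid down mostly at CG dinucleotides by DNA methyltransferases and is copied to the new strand at cell division by Dnmt1. Promoters rich in CpG usually lack methylation, whereas gene bodies and most DNA between genes carry it, and in the gut the continual division of crypt stem cells passes methylation patterns on to the surface cells. Bisulfite turns unmethylated cytosine into uracil and leaves methylated cytosine in place, so the share of reads that keep a C gives the methylation level.

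The amplicons held 4 to 24 CpGs over 102 to 541 bp (GRCm38, the assembly of mm10), and in 23 of 23 the measured CpGs were every CG of the span. By the annotation, 11 amplicons overlapped an exon, 8 of them with CpGs in coding sequence (82 CpGs), 6 were intronic and 6 intergenic. Only 2 lay within 1000 bp of the nearest gene start, at C1qb (169 bp upstream) and at Epha6 (350 bp downstream). The 6 sequences below are those of the 5 amplicons with the smallest p-values in the comparison and of the Lhx9 amplicon, which had the largest difference. They are the reference plus strand written 5′ to 3′, with each measured CpG in capitals. For Pcdh8 upstream and Lhx9 the first 300 bases are shown.
Pcdh8 exon, chr14:79769369-79769608: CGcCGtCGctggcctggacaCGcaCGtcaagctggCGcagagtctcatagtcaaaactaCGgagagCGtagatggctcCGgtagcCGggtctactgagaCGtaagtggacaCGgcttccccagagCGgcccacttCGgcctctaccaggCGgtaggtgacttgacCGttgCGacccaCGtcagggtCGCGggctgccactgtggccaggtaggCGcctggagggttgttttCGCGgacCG
Pcdh8 upstream, chr14:79822681-79822980: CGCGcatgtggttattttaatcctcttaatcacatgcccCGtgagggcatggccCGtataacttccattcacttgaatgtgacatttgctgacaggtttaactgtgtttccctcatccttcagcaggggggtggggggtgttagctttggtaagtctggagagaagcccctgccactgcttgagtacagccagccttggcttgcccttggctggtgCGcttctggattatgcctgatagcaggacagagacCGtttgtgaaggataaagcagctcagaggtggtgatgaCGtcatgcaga
Epha6 exon, chr16:60605091-60605272: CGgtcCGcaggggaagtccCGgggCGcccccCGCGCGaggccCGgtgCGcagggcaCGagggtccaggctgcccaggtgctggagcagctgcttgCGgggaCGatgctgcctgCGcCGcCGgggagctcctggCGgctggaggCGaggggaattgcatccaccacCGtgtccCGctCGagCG
chr5 Polr1d, chr5:147128604-147128798: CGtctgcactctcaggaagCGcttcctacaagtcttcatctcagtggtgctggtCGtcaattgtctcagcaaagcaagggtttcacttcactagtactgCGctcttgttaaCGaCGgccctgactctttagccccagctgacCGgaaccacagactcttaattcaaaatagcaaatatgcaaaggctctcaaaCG
chr10 1700020N01Rik, chr10:21559765-21559882: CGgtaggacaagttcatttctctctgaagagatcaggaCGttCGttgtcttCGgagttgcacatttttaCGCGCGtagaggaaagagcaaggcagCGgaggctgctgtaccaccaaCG
Lhx9, chr1:138838358-138838657: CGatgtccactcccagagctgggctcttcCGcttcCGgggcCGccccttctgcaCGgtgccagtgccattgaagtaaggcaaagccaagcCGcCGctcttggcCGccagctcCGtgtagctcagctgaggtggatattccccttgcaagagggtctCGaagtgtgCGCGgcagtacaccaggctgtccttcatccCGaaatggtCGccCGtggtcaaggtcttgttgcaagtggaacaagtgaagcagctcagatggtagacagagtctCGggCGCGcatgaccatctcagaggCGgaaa

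Formerly obese mice differed little from control mice at most of these sites, and the differences with the smallest p-values were positive differences at Pcdh8, at Epha6 and at 2 intergenic amplicons. Of the CpGs left after repeats were dropped, 137 were higher and 96 lower in formerly obese mice, with a median difference of 0.256 points. In limma with all 15 mice in the fit, 1 CpG had an adjusted p under 0.05 (0.429% of the CpGs), and 20 (8.58%) had an unadjusted p under 0.05, 18 of them higher and 2 lower, in 9 amplicons. In 3 CpGs (1.29%) the lowest formerly obese mouse lay above the highest control mouse, and in 0 (0.0%) the reverse held. By the exact permutation test over mice, 18 CpGs had p under 0.05, and the smallest adjusted value was 0.462. With 5 mice against 5 that test cannot give a p below 0.0079, so a single CpG cannot pass it after adjustment over all CpGs.

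On the amplicon level, where the value of a mouse is the mean over the CpGs of an amplicon, 16 amplicons were higher and 7 lower. None passed an adjusted p of 0.05 in limma, where the smallest was 0.164, and 5 (21.7%) had an unadjusted p under 0.05. These 5 became 2 without formerly obese replicate 4 or with the median over CpGs, and 3 without control replicate 2 or with a variance trend. The exact permutation test gave p under 0.05 for 4 amplicons before adjustment and for 0 after it, where the smallest was 0.228 and a single amplicon cannot pass. Neighbouring CpGs can be read on the same molecules, so CpGs of an amplicon were not counted as independent. The SD over mice was smaller in formerly obese than in control mice at 15 of 23 amplicons and at 138 CpGs, a difference that was not tested.

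**Figure D1:**
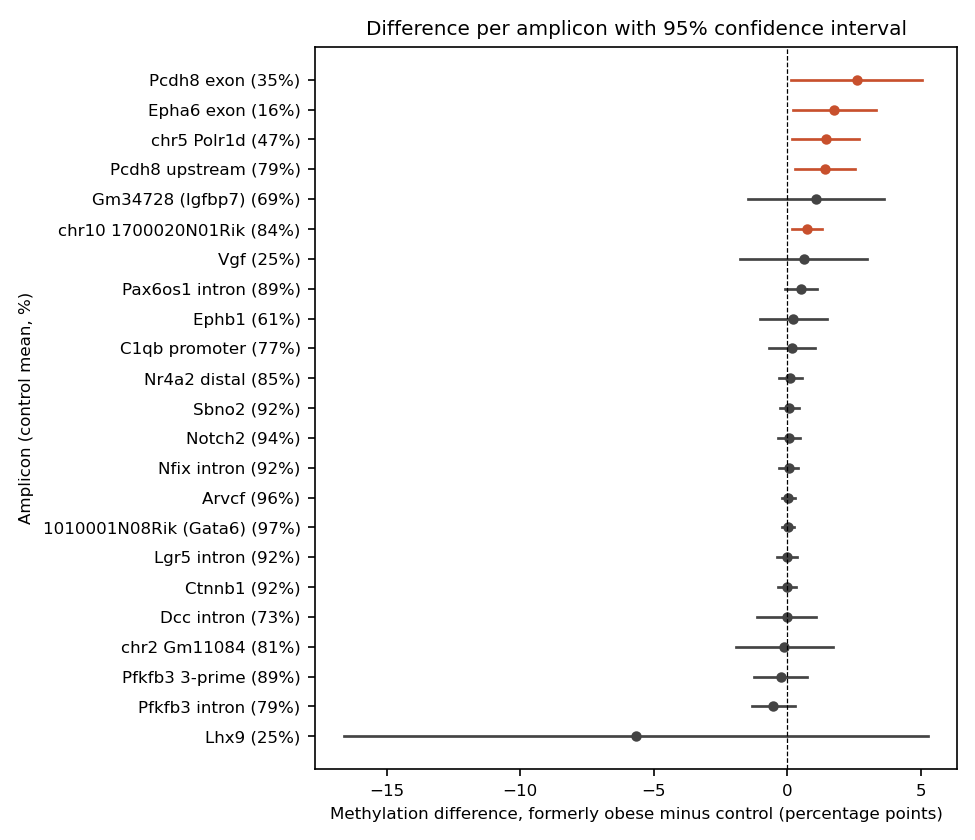
Difference in mean methylation (formerly obese minus control, percentage points) for each of the 23 amplicons, sorted by size, with the 95% confidence interval from limma as a line and the control mean in brackets. The 5 amplicons in orange have an unadjusted p under 0.05 and all lie above 0, and the interval of Lhx9 is the widest.

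The intervals bound how large the other differences could be. The 95% confidence interval of the difference lay within 10 points of 0 at 207 CpGs and 22 of 23 amplicons, within 5 points at 163 CpGs and 21 amplicons, and within 1 point at 51 CpGs and 8 amplicons. Precision followed the methylation level. At the 78 CpGs over 90% in control mice the median standard error was 0.290 points and the median absolute difference 0.236 points, at the 72 CpGs between 50% and 90% they were 0.853 and 0.832 points, and at the 83 CpGs under 50% they were 2.06 and 2.21 points. By amplicon, 5 of 7 over 90% were higher in formerly obese mice, 7 of 11 between 50% and 90%, and 4 of 5 under 50%. By CpG these counts were 37 of 78, 49 of 72 and 51 of 83, and the low class held the 20 Lhx9 CpGs, all of them lower. The 20 CpGs with an unadjusted p under 0.05 fell 4, 10 and 6 into these classes.

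**Figure D2:**
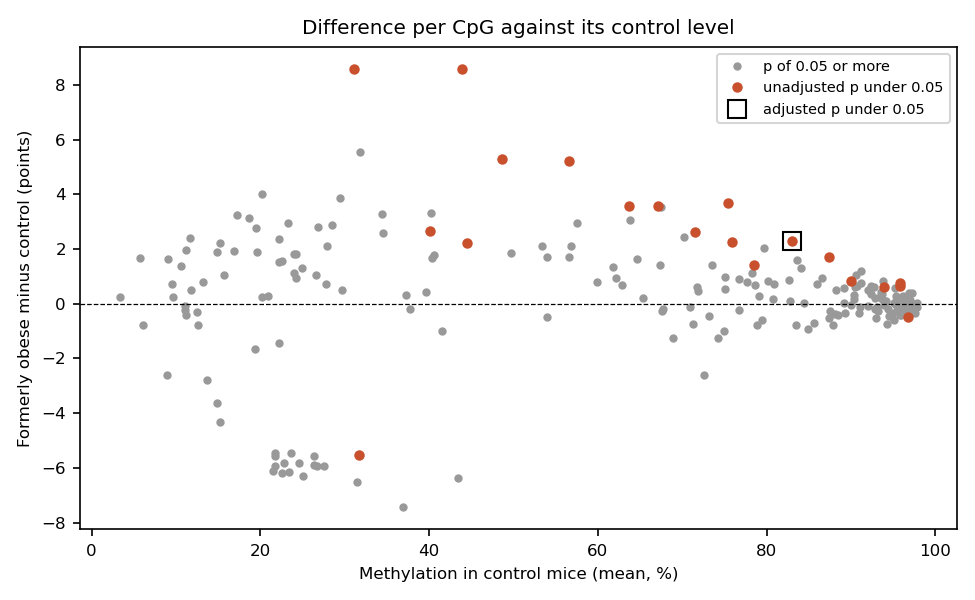
Difference per CpG (formerly obese minus control, percentage points) against the mean level in control mice (percent), 1 point per CpG, orange for an unadjusted limma p under 0.05 and a square for an adjusted p under 0.05. Differences narrow toward 100% methylation, and the points below -5 are Lhx9 CpGs and 1 CpG of Vgf.

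Averaged over all CpGs, methylation was 63.4% ± 0.895 (SD, n = 5) in control and 63.6% ± 0.583 (n = 5) in formerly obese mice, a difference of 0.201 points (two-sided exact permutation p = 0.683), and obese mice had 63.2% ± 0.602. Single control mice ranged from 62.3% to 64.6% and formerly obese mice from 63.0% to 64.5%, so the groups overlapped almost entirely. The Lhx9 amplicon set much of that spread. All 20 of its CpGs were lower in formerly obese mice, so leaving it out could only raise the difference. Without its 20 CpGs, an alternative chosen after seeing the data, the mean was 67.1% ± 0.267 in control and 67.9% ± 0.304 in formerly obese mice. The ranges then met only at the edge, from 66.9% to 67.4% in control and from 67.3% to 68.1% in formerly obese mice. The difference was 0.751 points (exact permutation p = 0.0238), and 0.687 to 0.879 points when any one of the 10 mice was also left out (exact permutation p from 0.0159 to 0.0476). After that choice these p-values lend no support to a general shift. An amplicon weighs in this mean by its number of CpGs, most of all the Pcdh8 exon (24 CpGs) and Epha6 (21 CpGs). Over amplicon means without Lhx9 the difference was 0.459 points (exact permutation p = 0.0476). With all CpGs, the difference changed sign without control replicate 2 (-0.0743 points) and without formerly obese replicate 1 (-0.0118 points).

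Among the adhesion and guidance receptor genes, both amplicons at Pcdh8, which encodes a protocadherin of cell adhesion, were higher in formerly obese mice. The first lies in the coding sequence 1824 bp downstream of the start of the gene (24 CpGs, 64.2% G and C). Its mean was 35.5%, 37.2%, 35.4%, 34.9% and 32.8% in control replicates 1 to 5, and 37.7%, 37.8%, 38.6%, 38.3% and 36.4% in formerly obese replicates 1 to 5. All formerly obese mice but replicate 5 lay above all control mice, and replicate 5 lay below control replicate 2 alone. The group means were 35.2% ± 1.61 and 37.8% ± 0.820 (SD, n = 5), a difference of 2.60 points (SE 1.14, 95% confidence interval 0.142 to 5.06) with a limma adjusted p of 0.183 and an exact permutation p of 0.0159. The unadjusted limma p was 0.0397, and ranged from 0.0211 (without control replicate 2) to 0.106 (without control replicate 5) when 1 mouse was left out. With the median over CpGs the difference was 2.03 points (limma unadjusted p = 0.137). All 24 CpGs were higher, by 0.256 to 5.29 points, although CpGs along the amplicon ranged from 15.2% to 75.4% in control mice. Obese mice averaged 37.0% ± 2.72, and 1 of them, at 41.7%, lay above every other mouse of the 15.

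The second Pcdh8 amplicon is intergenic, 51639 bp upstream of the gene start, with 15 CpGs. Its mean was 79.0%, 78.9%, 77.4%, 79.3% and 80.1% in the control mice, and 80.9%, 80.0%, 81.3%, 80.5% and 79.1% in the formerly obese mice. The groups overlapped, with formerly obese replicates 2 and 5 below control replicate 5. The difference was 1.41 points (SE 0.515, 95% confidence interval 0.301 to 2.52, limma adjusted p = 0.164, exact permutation p = 0.0556), and 13 of 15 CpGs were higher. With the median over CpGs it was 1.74 points (limma unadjusted p = 0.121). Obese mice, compared with the same control mice, differed by 1.61 points (limma adjusted p = 0.184).

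This amplicon held the only CpG that passed the adjusted threshold, chr14:79822735, the fourth CpG, at base 55 of the printed sequence. It read 83.4%, 81.6%, 83.0%, 83.5% and 83.7% in the control mice and 85.5%, 85.4%, 85.6%, 85.8% and 84.2% in the formerly obese mice. Every formerly obese mouse lay above every control mouse. The difference was 2.28 points (SE 0.467, 95% confidence interval 1.29 to 3.27, limma adjusted p = 0.0418). Obese mice averaged 85.6% ± 0.488, 2.56 points over the same control mice. The call held without control replicate 4, when 2 CpGs were called, and without formerly obese replicate 5, and was lost without any one of the other 8 mice (limma adjusted p from 0.0504 to 0.143). It was also lost in limma on the arcsine scale (adjusted p = 0.0566), on the logit scale (adjusted p = 0.0550) and with the 10 compared mice alone (adjusted p = 0.166).

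**Figure D3:**
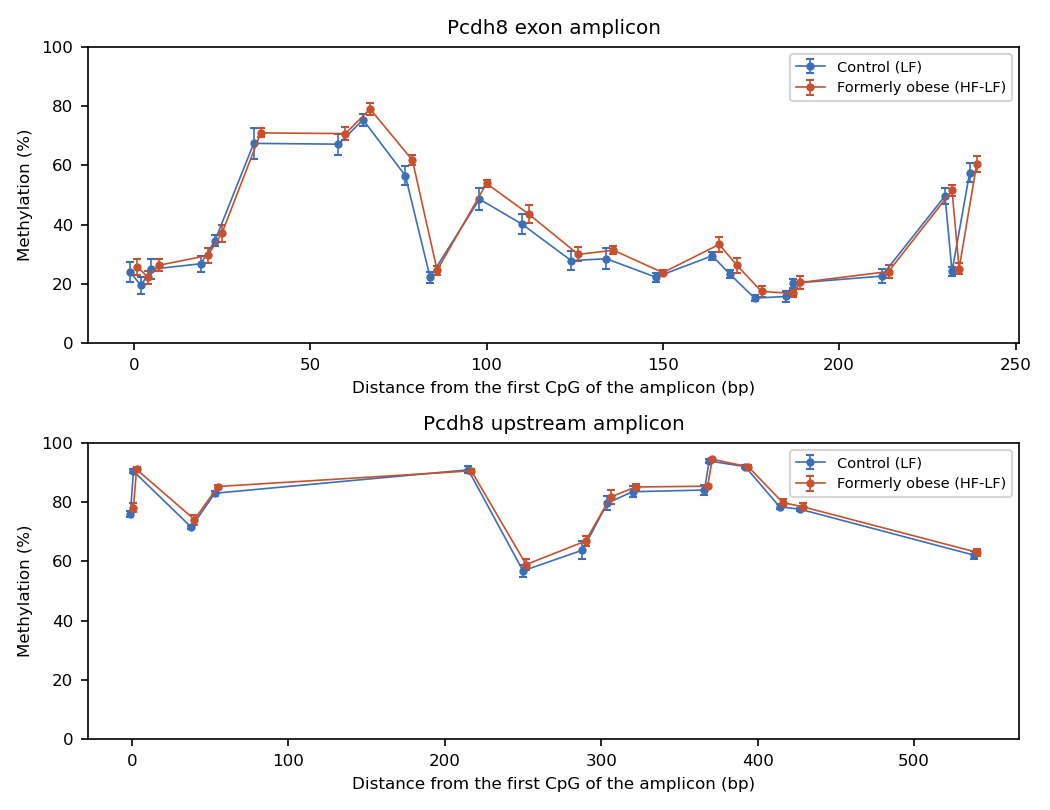
Methylation (percent, mean and SD over 5 mice) of each CpG along the 2 Pcdh8 amplicons against the distance from the first CpG (bp), in control (blue) and formerly obese mice (orange), with the groups set slightly apart for legibility. The orange points of the exon amplicon lie above the blue ones at all 24 CpGs, and the profiles otherwise follow the same course.

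The Epha6 amplicon includes coding sequence in the first part of the gene of an ephrin-A receptor, a tyrosine kinase of axon guidance, and was the least methylated of the 23 (21 CpGs, 75.8% G and C). Its mean was 16.9%, 15.5%, 16.9%, 14.2% and 18.4% in control mice, and 17.5%, 18.2%, 18.2%, 18.6% and 18.1% in formerly obese mice. The formerly obese mice lay close together, and only control replicate 5 reached their range. The difference was 1.77 points (SE 0.719, 95% confidence interval 0.216 to 3.32, limma adjusted p = 0.164, exact permutation p = 0.0397), with 14 of 21 CpGs higher. With the median over CpGs in place of the mean it was 0.698 points (limma unadjusted p = 0.361). The difference was uneven along the amplicon, from -2.62 to 8.58 points. The neighbouring CpGs chr16:60605133 and chr16:60605138, at bases 43 and 48 of the printed sequence, had the largest positive differences of all sites. At chr16:60605133 control mice read 47.7%, 46.5%, 43.8%, 39.5% and 41.9%, and formerly obese mice 52.8%, 47.3%, 54.1%, 57.4% and 50.8%. At chr16:60605138 control mice read 33.9%, 31.8%, 26.6%, 27.7% and 35.1%, and formerly obese mice 34.8%, 43.4%, 34.5%, 50% and 35.4%. At the first site control replicate 1 lay above formerly obese replicate 2, and at the second control replicate 5 lay above 2 formerly obese mice. The differences were 8.58 points (95% confidence interval 3.13 to 14.04, limma adjusted p = 0.179) and 8.57 points (2.81 to 14.3, limma adjusted p = 0.181).

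The other 3 genes of adhesion and guidance showed smaller differences, none with an unadjusted limma p under 0.05 at the amplicon level. Ephb1, a receptor for ephrin-B ligands, read 61.2% in control and 61.5% in formerly obese mice (95% confidence interval of the difference -1.02 to 1.48). Dcc, the netrin receptor, read 73.0% in both groups (-1.12 to 1.10). Arvcf, a catenin that binds the cadherin tail, was highly methylated at 96.0% in both groups (-0.211 to 0.275). Inside the Arvcf amplicon 2 CpGs 8 bp apart went opposite ways, chr16:18402907 by 0.650 points (limma adjusted p = 0.179) and chr16:18402915 by -0.476 points (limma adjusted p = 0.484). At chr16:18402915 control mice read 97.4%, 96.5%, 96.7%, 96.6% and 96.4%, and formerly obese mice 96.0%, 96.5%, 96.4%, 96.4% and 95.9%, with overlap. Without control replicate 1 the difference there was -0.314 points (limma unadjusted p = 0.111).

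**Figure D4:**
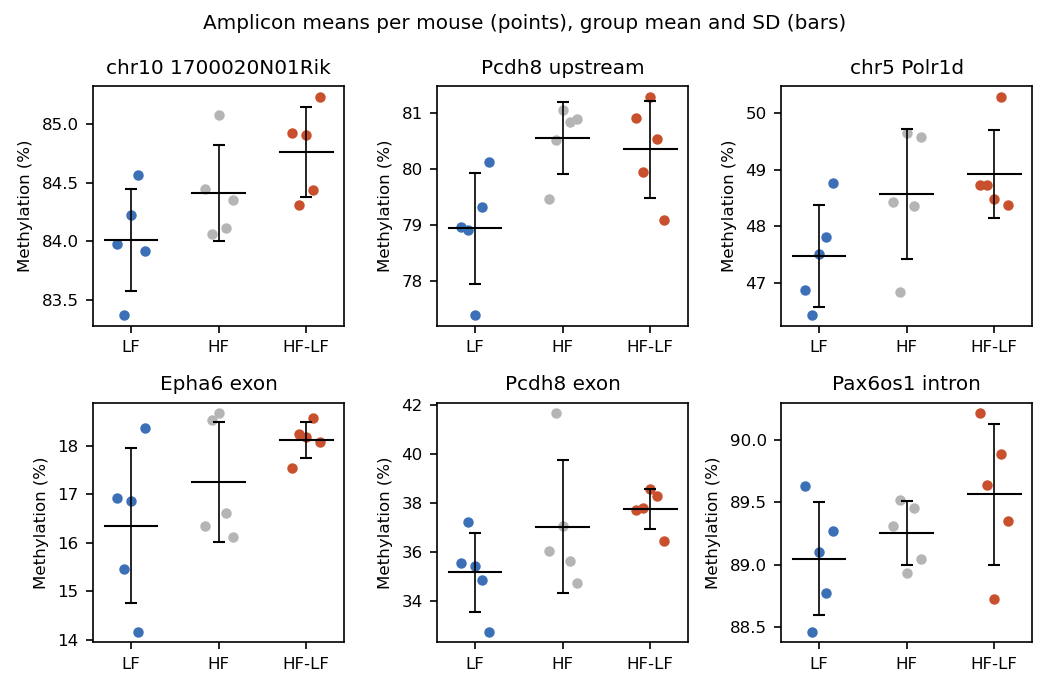
Mean methylation of the 6 amplicons with the smallest p-values in each control (LF), obese (HF) and formerly obese (HF-LF) mouse, 1 point per mouse, with the group mean and SD as bars. Each panel has its own percent axis, which does not start at 0, and in every panel the formerly obese mean lies above the control mean while points of both groups overlap.

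A pair of other intergenic amplicons was also higher in formerly obese mice. The amplicon on chromosome 10, 33322 bp upstream of 1700020N01Rik, had the smallest p-value of the 23. Its mean was 84.0%, 83.4%, 84.2%, 84.6% and 83.9% in control mice and 84.9%, 84.3%, 84.9%, 84.4% and 85.2% in formerly obese mice. The 2 lowest formerly obese mice lay below control replicate 4, and the rest above every control mouse. The difference was 0.751 points (SE 0.258, 95% confidence interval 0.195 to 1.31, limma adjusted p = 0.164, exact permutation p = 0.0317), and 6 of 9 CpGs were higher. Its CpG chr10:21559816, at base 52 of the printed sequence, read 87.4%, 87.0%, 87.4%, 88.7% and 86.6% in control and 89.5%, 88.9%, 89.4%, 88.1% and 89.7% in formerly obese mice. Only formerly obese replicate 4 lay below a control mouse. The difference was 1.70 points (95% confidence interval 0.792 to 2.62, limma adjusted p = 0.117), and the adjusted p was 0.0298 without control replicate 4.

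The amplicon on chromosome 5 lies 51651 bp downstream of the start of Polr1d, a subunit shared by RNA polymerases I and III. Its mean was 46.9%, 46.4%, 47.5%, 47.8% and 48.8% in control and 48.7%, 48.7%, 48.5%, 50.3% and 48.4% in formerly obese mice. Control replicate 5 lay inside the formerly obese range, and the other control mice lay below it. The difference was 1.45 points (SE 0.580, 95% confidence interval 0.195 to 2.70, limma adjusted p = 0.164, exact permutation p = 0.0397), and 7 of 8 CpGs were higher. With the median over CpGs it was 2.21 points. The unadjusted limma p of the amplicon was 0.0267, and 0.0649 with a variance trend. When 1 mouse was left out it ranged from 0.00969 (without control replicate 5) to 0.0758 (without formerly obese replicate 4, difference 1.10 points). At its CpG chr5:147128746 control mice read 63.7%, 61.8%, 64.8%, 64.7% and 63.3%, and formerly obese mice 68.4%, 65.2%, 66.6%, 68.5% and 67.5%, with no overlap. The difference there was 3.57 points (95% confidence interval 1.60 to 5.54, limma adjusted p = 0.117). A further intergenic amplicon, on chromosome 2 near Gm11084, read 81.2% in control and 81.1% in formerly obese mice (95% confidence interval of the difference -1.92 to 1.70).

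Among the transcription factor genes, the Lhx9 amplicon had the largest difference of the 23 and by far the widest spread. Lhx9 encodes a LIM homeodomain factor, and its 20 measured CpGs lie in coding sequence. Its mean was 24.3%, 13.7%, 18.7%, 31.2% and 34.9% in the 5 control mice, 28.1%, 11.8%, 11.4%, 16.6% and 26.7% in formerly obese mice, and 20.0%, 11.1%, 8.10%, 8.87% and 27.6% in obese mice. The groups overlapped, but control replicates 4 and 5 lay above every other mouse, and 2 formerly obese and 3 obese mice lay below every control mouse. The formerly obese mean was 5.66 points lower (SE 5.06, 95% confidence interval -16.6 to 5.27, limma adjusted p = 0.816, exact permutation p = 0.294), and that of obese mice 9.43 points lower than in the same control mice. All 20 CpGs were lower, but within groups their levels varied together from mouse to mouse. The median correlation between CpGs over 15 mice, with the mean of each group subtracted, was 0.979. The same median was 0.459 in the Pcdh8 exon and 0.0273 in Epha6. The largest CpG difference in Lhx9 was at chr1:138838633, which read 37.8%, 27.6%, 27.3%, 45.2% and 46.9% in control and 41.6%, 22.4%, 18.3%, 26.8% and 38.5% in formerly obese mice. The difference of -7.44 points (95% confidence interval -18.9 to 3.99) was within the spread between mice, and was -4.62 points without formerly obese replicate 3.

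**Figure D5:**
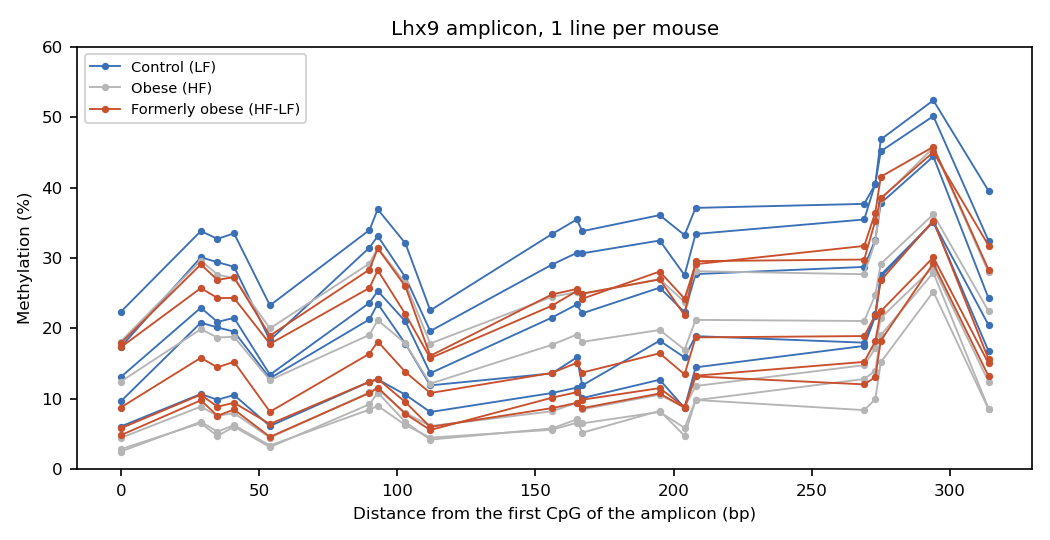
Methylation (percent) of the 20 Lhx9 CpGs against the distance from the first CpG (bp), 1 line per mouse, with control mice in blue, obese mice in grey and formerly obese mice in orange. The lines are nearly parallel, and those of the 3 groups interleave from mouse means of 8.10% to 34.9%.

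Lhx9 was also the only amplicon that overlapped a differentially methylated region between obese and control mice in the list from whole-genome bisulfite sequencing, which holds 8199 regions, 4123 with higher and 4076 with lower methylation in obese mice. The region, chr1:138838448-138838452, is listed as higher in obese mice and covers 2 measured CpGs. In BSP-seq the control mean was 24.6%, the obese mean 15.4% and the formerly obese mean 18.7% at chr1:138838448, and these means were 26.3%, 16.8% and 20.4% at chr1:138838451, so the obese mean was below the control mean at both. The list gives no value per mouse, and the cause of the opposite direction was not tested. The nearest region to Epha6 lay 264 bp away. The paper reports that part of the listed regions kept their methylation change in formerly obese mice. With only 1 amplicon on a listed region, the BSP-seq comparison does not bear on that report.

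The other 4 amplicons at transcription factor genes were highly methylated and differed by less. The intron of Pax6os1, a gene antisense to that of the eye and endocrine factor Pax6, read 89.6%, 88.5%, 89.1%, 88.8% and 89.3% in control and 90.2%, 89.6%, 88.7%, 89.9% and 89.4% in formerly obese mice, with wide overlap. The difference was 0.513 points (SE 0.275, 95% confidence interval -0.0812 to 1.11, limma adjusted p = 0.326, exact permutation p = 0.151), and 4 of 4 CpGs were higher. The intron of 1010001N08Rik, 62687 bp upstream of Gata6, a factor of the intestinal epithelium, was the most methylated amplicon. It read 96.7%, 97.1%, 96.9%, 96.9% and 96.9% in control and 97.0%, 96.9%, 96.9%, 97.1% and 96.8% in formerly obese mice, a difference of 0.0295 points (95% confidence interval -0.195 to 0.254). The Nfix intron, in the gene of a nuclear factor I protein, read 92.4% in both groups (-0.297 to 0.405). A distal amplicon at Nr4a2, an orphan nuclear receptor, read 85.2% in control and 85.3% in formerly obese mice (-0.312 to 0.539), and its CpG chr2:56858457 was higher without overlap, from 95.6% to 96.3% in control and from 96.4% to 97.1% in formerly obese mice (difference 0.766 points, limma adjusted p = 0.170).

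The 3 amplicons at genes of Wnt and Notch signalling and stem cells had small differences. Ctnnb1, which encodes beta-catenin, read 92.4% in both groups with an interval of -0.351 to 0.344 points. Lgr5, the R-spondin receptor that marks intestinal stem cells, read 92.2% in both groups with an interval of -0.379 to 0.378 points. Notch2, a receptor of the pathway, read 94.4% in both groups with an interval of -0.357 to 0.465 points. Within Lgr5 the first CpG, chr10:115459683, read 93.3%, 92.7%, 92.3%, 93.1% and 93.3% in control and 92.9%, 92.6%, 92.6%, 92.0% and 92.0% in formerly obese mice. The ranges overlapped, and the difference was -0.526 points (95% confidence interval -1.16 to 0.113, limma adjusted p = 0.630).

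At metabolism and signalling genes, both Pfkfb3 amplicons had slightly lower means in formerly obese mice. Pfkfb3 encodes an enzyme that raises glycolytic flux. The amplicon at its 3′ end read 89.0% in control and 88.7% in formerly obese mice (95% confidence interval of the difference -1.23 to 0.760), and the intronic one 79.1% and 78.6% (-1.32 to 0.275). Sbno2, a transcriptional coregulator, read 92.2% and 92.3% (-0.269 to 0.441). At genes of immune and secreted proteins, the C1qb promoter, at a subunit gene of complement C1q, read 77.2% and 77.3% (-0.662 to 1.04). The exon of Gm34728, 26562 bp upstream of the insulin-like growth factor binding protein gene Igfbp7, read 68.7% and 69.8% (-1.46 to 3.63), with 11 of 11 CpGs higher. Vgf, which encodes a neuroendocrine peptide precursor, read 25.2% and 25.9% (-1.75 to 3.00). Its CpG chr5:137030978 read 40.5%, 25.6%, 29.6%, 35.7% and 27.0% in control and 25.8%, 28.0%, 24.0%, 27.1% and 25.9% in formerly obese mice. Control mice were spread over the wider range there, with replicates 1, 3 and 4 above every formerly obese mouse, and the difference was -5.51 points (95% confidence interval -10.8 to -0.249, limma adjusted p = 0.484). Without control replicate 1 it was -3.30 points (limma unadjusted p = 0.136).

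RNA-seq of the same groups, with 5 libraries each and 15230391 to 22762095 gene counts per library, was used to see whether genes at the amplicons differed in expression. The labels do not say whether a replicate number marks the same mouse in both assays. Of the 26 genes that contained an amplicon or had the nearest start, 24 were in the count table and 15 had enough counts for edgeR. At a fold over 1.2, p under 0.01 and adjusted p under 0.25, 482 of 12961 genes were called (3.72%) and 0 of these 15, also with DESeq2. At that share, 15 genes are too few for a count of 0 to set them apart from other genes. Of the 15, 2 had an unadjusted p under 0.05 (the share of all genes at that p was not counted) and 4 were higher. Their median log2 fold change was -0.06 against -0.00065 over all tested genes. Ctnnb1 was at 1240 ± 43.8 CPM in control and 1326 ± 7.61 CPM in formerly obese mice, a log2 fold change of 0.10 with SE 0.04 (edgeR adjusted p = 0.222). Nfix was at 63.6 ± 6.79 and 57.5 ± 3.75 CPM, a log2 fold change of -0.15 with SE 0.07 (edgeR adjusted p = 0.274). Lgr5 was at 26.1 ± 6.43 and 24.4 ± 4.64 CPM (edgeR adjusted p = 0.773), and Pfkfb3 at 2.21 ± 0.553 and 3.00 ± 0.810 CPM (edgeR adjusted p = 0.358).

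The genes that held the 3 largest amplicon differences, Lhx9, Pcdh8 and Epha6, gave almost no reads. Pcdh8, Epha6 and Dcc had 0 counts in each of the 15 libraries, which allows up to 3 counts in a library, Lhx9 had 2 counts and Ephb1 1 count in all 15 together. A difference in their expression was not detectable at this depth.

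Marker lists were read in the same RNA libraries. Of 14 genes of DNA methylation enzymes and readers, 12 were tested and 0 called, 0 at an unadjusted edgeR p under 0.05, with a median log2 fold change of -0.01. The maintenance enzyme Dnmt1 was at 86.9 ± 9.90 CPM in control and 90.7 ± 13.6 CPM in formerly obese mice, and Dnmt3l was at 0 in all libraries. Of 10 genes of the small intestine 7 were tested, and all 7 were higher. Of these, 4 were called higher (Apob, Sis, Fabp2 and Alpi), where 1.85% of all tested genes were called higher. Their median was 0.60, and summed levels of the list were 1089 to 1387 CPM in control and 1475 to 1717 CPM in formerly obese mice. Posterior Hox genes, which mark the distal gut, had 7 of 9 tested members called lower where 1.87% of all tested genes were called lower, with a median of -0.45 and summed levels of 493 to 598 CPM in control and 347 to 454 CPM in formerly obese mice. Hoxb13, for example, was at 353 ± 29.8 and 275 ± 30.3 CPM (log2 fold change -0.36, edgeR adjusted p = 0.0303). The paper shows Hoxb13 as an example of a gene whose changes persisted after weight loss. Of the 14 epithelial markers 7 were higher and 2 were called higher (Krt20 and Slc26a3). At an unadjusted edgeR p under 0.05 there were 4, all of them higher, but the share of all genes at that p was not counted. The median was 0.0014, with summed levels of 20503 to 27116 CPM in control and 24133 to 29625 CPM in formerly obese mice.

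Markers of cells outside the epithelium were low in both groups. Enough counts for a test were found for 8 of 13 immune cell markers. The same held for 4 of 11 fibroblast and muscle markers and 2 of 8 endothelial and adipocyte markers. A low gene can pass that filter through the group where it is high, so counts of higher members are not read as a result. The share of all genes at an unadjusted edgeR p under 0.05 was not counted. Immune cell markers summed to 17.6 to 36.8 CPM in control and 23.1 to 49.8 CPM in formerly obese mice, with 8 of 8 tested members higher and 0 called, 0 also at an unadjusted p under 0.05 (median log2 fold change 0.34). Fibroblast and muscle markers summed to 2.63 to 13.2 CPM and 6.70 to 30.4 CPM, with 4 of 4 tested members higher, 0 called and 2 at an unadjusted p under 0.05 (median 1.09). Endothelial and adipocyte markers summed to 8.85 to 15.5 CPM and 8.61 to 14.1 CPM, with 0 of 2 called and 0 at an unadjusted p under 0.05 (median -0.11), and Plin1 was at 0. The part of cell composition or colon segment in the methylation differences at Pcdh8, Epha6, Lhx9 and the intergenic amplicons was not tested.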

How the data were processed

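BSP-seq values were deposited by the authors as a methylation fraction for each CpG in each mouse, and were multiplied by 100 here, since the design had assumed percent. The submitters' processing notes name cutadapt, TopHat2 2.0.4, HTSeq, DESeq2 1.2.10, bedtools 2.19.0, Bismark 0.7.8 and 0.14.0 and mm10, and the Bismark version behind the BSP-seq table is not given in the sources used here. Unequal amplification of converted and unconverted strands in the PCR can shift a level. RNA-seq was deposited by the authors as raw counts per gene, and the differentially methylated regions as a list with a direction. The authors' DESeq2 tables of fold changes and p-values were not used.

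Groups came from the sample labels. Percent methylation was compared in R 4.3.3 with limma 3.58.1, all 15 mice in 1 fit with a term for group alone (variance trend for CpGs, none for amplicon means), two-sided with Benjamini-Hochberg adjustment over all features, and by exact permutation over 252 splits with SciPy 1.17.1. Counts were compared with edgeR 4.0.16 (TMM, filterByExpr, quasi-likelihood) or DESeq2 1.42.0. CPM use TMM-scaled totals. Both fits were run on simulated data as a check of the code. The simulated CpGs were independent, unlike those of an amplicon, so that check lends no support to a call made here. CpG and amplicon positions are GRCm38, with GENCODE annotation and RefSeq sequence.

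Members and lists were chosen with earlier results of these data known. The text names the 3 CpGs with the smallest p in each direction and the 3 with the largest difference, the 6 amplicons with the smallest p and the most and least methylated, and up to 3 genes a list. All other amplicons are given by their means, and Lhx9 in full because it lies on a listed region. CpGs chr2:56858457 and chr16:18402907 and the gene Alpi were named after their values were seen. Alternatives were other scales, fits, call rules, gaps joining CpGs, the replicate block and leaving out each mouse. Any 2 mice differed at 98.7% of CpGs or more, so none was a copy.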

Additional observations from a re-analysis of the deposited data

Results flagged for a closer look

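In 4 of 66 sets of 5 mice of 1 group (the named CpGs, all amplicons and the mean over CpGs), 1 mouse stood apart from the other 4 by Dixon's test at its 95% critical value of 0.71, where chance gives about 1 in 20. At the Pfkfb3 intron formerly obese replicate 2 was highest, at 79.5% against 78.1% to 78.5%. At Notch2 formerly obese replicate 3 was lowest, at 93.9% against 94.4% to 94.6%. At the chromosome 5 amplicon near Polr1d formerly obese replicate 4 was highest, at 50.3% against 48.4% to 48.7%. At CpG chr14:79822735 formerly obese replicate 5 was lowest, at 84.2% against 85.4% to 85.8%.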

How the results depend on the processing

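The single CpG call became 0 on the arcsine and logit scales, with the 10 compared mice alone and with a rule of unadjusted p under 0.05 and over 10 points, and ranged from 0 to 2 when 1 mouse was left out. The exact permutation test also gave 0, but cannot call a single CpG at this number of mice. It stayed 1 with no variance trend and with CpGs between 5% and 95% alone. The amplicon count was 0 under every alternative run, gaps of 250 bp and 1000 bp included, which gave the same 23 amplicons. The mean over all CpGs ranged from -0.0743 to 0.480 points when 1 mouse was left out, and the median over CpGs differed by 1.07 points (exact permutation p = 0.0397). Without Lhx9 the mean differed by 0.751 points, 0.687 to 0.879 when a mouse was also left out. Over amplicon means without Lhx9 it differed by 0.459 points (exact permutation p = 0.0476). These alternatives were all chosen after seeing the data. Lhx9 was lower in formerly obese mice, so leaving it out could only raise the difference. The causes were not tested. The 1010001N08Rik difference ranged from -0.0124 (without control replicate 1) to 0.0751 when 1 mouse was left out, with -0.00875 without formerly obese replicate 4, and was -0.034 with medians over CpGs. The amplicon genes gave 0 calls under every alternative run. With the replicate number as a block, 0 CpGs and 0 amplicons were called, chr14:79822735 had a limma adjusted p of 0.0989, and the mean differed by 0.201 points (exact permutation p = 0.563). Over all CpGs, control and formerly obese mice with the same number did not deviate together (correlations from -0.148 to 0.109). Of the formerly obese mice, 0 correlated best with the control mouse of their own number, and the numbers were not taken as pairs. At the Lhx9 CpG chr1:138838633, however, the block lowered the unadjusted limma p from 0.186 to 0.0174 (adjusted p = 0.312). With the block, 32 CpGs had an unadjusted limma p under 0.05, against 20 without it. A shared factor behind the numbers was therefore not excluded. Read depth was not given per CpG and mouse, and 5 mice a group limit what intervals can exclude.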
